A study of Homo sapiens with 6 samples.

Results

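Genes of airway epithelial defence, LCN2, C3, RNASE7 and BPIFB1, were followed through mitoxantrone treatment. They were chosen by symbol from the authors' deposited table of changed genes, and all 4 were found among its 1305 genes. The table is itself a selection on these libraries, since the smallest absolute log2 fold change in the authors' deposited table is 1.0. Being listed is therefore no finding. The libraries were made from the human lung carcinoma cell line NCI-H292 after 50 nM mitoxantrone for 48 hours (3 libraries) or DMSO, the solvent, at a dilution of 1 in 1000 for the same time (3 libraries). Mitoxantrone, a chemotherapy agent, breaks DNA by locking topoisomerase II onto it, and the study's title places the comparison in drug-induced senescence and therapy directed at LUNX. The labels do not state whether each library had its own culture. The p-values therefore speak of the spread between these libraries, which may be technical.

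Airway epithelium secretes proteins that starve, mark or kill microbes. LCN2 encodes lipocalin 2, which binds the siderophores that bacteria use to take up iron. C3 encodes the central complement protein, whose cleavage product C3b coats microbes and whose fragment C3a signals to immune cells. RNASE7 encodes a secreted antimicrobial ribonuclease of the RNase A family. BPIFB1 encodes a secreted protein of the BPI fold family, made in airway mucous cells. BPIFA1, which encodes LUNX, belongs to the same family and was not analysed here. NF-kappaB, with its cofactor IkappaB-zeta (NFKBIZ), and C/EBP transcription factors are known regulators of LCN2 and C3 in epithelial cells exposed to interleukin 1 or interleukin 17.

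The bases just before the transcription start are shown for the genes with an entry in the RefSeq promoter table (GRCh38.p14), LCN2, RNASE7 and BPIFB1. C3, which also rose, had no entry there. Each line gives the 250 bases before the start on the plus strand, 5′ to 3′: chr9:128149203-128149452 for LCN2, chr14:21042112-21042361 for RNASE7 and chr20:33282964-33283213 for BPIFB1. Capitals mark letters that match a searched motif.
LCN2: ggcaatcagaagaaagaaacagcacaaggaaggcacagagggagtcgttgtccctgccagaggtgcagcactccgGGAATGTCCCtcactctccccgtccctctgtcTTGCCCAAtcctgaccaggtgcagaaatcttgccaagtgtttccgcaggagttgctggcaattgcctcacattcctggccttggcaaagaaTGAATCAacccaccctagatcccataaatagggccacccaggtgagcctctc
RNASE7: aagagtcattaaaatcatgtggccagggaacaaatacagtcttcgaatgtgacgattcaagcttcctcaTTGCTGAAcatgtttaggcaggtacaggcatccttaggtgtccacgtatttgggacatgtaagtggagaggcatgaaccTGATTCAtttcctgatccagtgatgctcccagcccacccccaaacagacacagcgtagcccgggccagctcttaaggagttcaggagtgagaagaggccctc
BPIFB1: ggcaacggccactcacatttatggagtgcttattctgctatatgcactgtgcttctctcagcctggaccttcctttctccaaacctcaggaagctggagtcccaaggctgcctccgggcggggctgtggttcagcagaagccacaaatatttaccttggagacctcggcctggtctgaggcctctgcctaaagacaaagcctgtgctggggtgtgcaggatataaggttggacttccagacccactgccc
The motifs were TTGCNNAA for C/EBP, the AP-1-like pattern TGANTCA, the NF-kappaB consensus and the TATA motif TATAAA, each on both strands. The AP-1-like pattern takes any base in its centre, so a match is not necessarily an AP-1 consensus site. The LCN2 window held the C/EBP motif 143 to 136 bases before the start and the AP-1-like pattern 52 to 46 bases before it. Its NF-kappaB consensus match lay 175 to 166 bases before the start, on the minus strand, and no 2 matches overlapped. The RNASE7 window held the C/EBP motif 181 to 174 and the AP-1-like pattern 102 to 96 bases before the start. The AP-1-like matches had A (LCN2) and T (RNASE7) in the centre. None of the 4 motifs matched in the BPIFB1 window. Over all 35116 gene windows of the same length, 9.05% held a C/EBP match and 6.57% an AP-1-like match. The shares were 9.96% for the NF-kappaB consensus and 10.7% for TATAAA. These matches describe letters and not binding, and their link to the changes of the genes was not tested.

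LCN2, C3 and RNASE7 were higher with mitoxantrone, and BPIFB1, present at a handful of reads, was lower. LCN2 was 7.51-fold higher, RNASE7 5.59-fold and C3 5.57-fold, while BPIFB1 was 5.30-fold lower. Values are reads divided by the authors' size factors (normalized reads), and tests are the edgeR quasi-likelihood test on read counts, adjusted by Benjamini-Hochberg for the 18313 genes that the authors tested. An adjusted p under 0.05 was reached by 92% of the 1305 listed genes (56.7% as higher, 35.3% as lower), and for 98.6% the 2 groups of libraries did not overlap. Against that background, 3 members passing as higher, 1 as lower and 4 without overlap does not set them apart from the rest of the table. The groups are bulk RNA, in which fewer cells of a type and less RNA per cell cannot be told apart.

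LCN2 had 14747, 12653 and 12144 normalized reads in the 3 mitoxantrone libraries, against 1423, 2051.5 and 1792 in the 3 DMSO libraries. The lowest mitoxantrone library stood far above the highest DMSO library. The log2 fold change was 2.91 (standard error 0.17, adjusted p = 2.8e-08, edgeR quasi-likelihood test). Per length, LCN2 reached 392 ± 32.3 FPKM with mitoxantrone and 54.7 ± 8.04 FPKM with DMSO (SD, n = 3 each). This placed it at rank 6 of the 1305 listed genes by mean FPKM with mitoxantrone, and at rank 43 with DMSO. Of the library totals solved from FPKM, LCN2 took 0.0763% to 0.0883% in the mitoxantrone libraries and 0.00941% to 0.0126% in the DMSO libraries.

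C3 had 3994, 4656 and 5040.4 normalized reads with mitoxantrone, against 806, 682 and 968 with DMSO, again with no overlap. Its log2 fold change was 2.48 (standard error 0.16, adjusted p = 5.4e-08, edgeR quasi-likelihood test). The transcript stood at 33.7 ± 4.67 FPKM with mitoxantrone and 6.35 ± 1.30 FPKM with DMSO (SD, n = 3 each), so that per length C3 was well below LCN2 in both groups. In the authors' table the gene lies on chromosome 19, minus strand, from 6677715 to 6730573, in a genome build that is not given in the sources used here. In GENCODE 29 the C3 gene overlaps the protein-coding gene GPR108 on the same strand, which is not in the deposited table. Reads shared by both could not be separated here.

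RNASE7 had 443, 438 and 382 normalized reads with mitoxantrone, against 68.7, 78.3 and 78.8 with DMSO. The 2 groups did not overlap, and the spread was the narrowest of the 4 genes, with a coefficient of variation of 8.03% with mitoxantrone and 7.54% with DMSO. The log2 fold change was 2.48 (standard error 0.16, adjusted p = 4.1e-08, edgeR quasi-likelihood test). RNASE7 reached 17.2 ± 1.04 FPKM with mitoxantrone and 3.23 ± 0.205 FPKM with DMSO (SD, n = 3 each). It lies on chromosome 14, plus strand, from 21510385 to 21512393 in the authors' table. The GRCh38.p14 promoter window of RNASE7 ends at 21042361, so positions in the authors' table cannot be compared with those of the promoter windows. In GENCODE 29 RNASE7 overlaps NDRG2 on the opposite strand, a gene that is not in the deposited table. The labels do not say whether the libraries kept the strand. RNASE7 also resembles its paralogue RNASE8, and how reads of the 2 were divided is not known.

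BPIFB1 had 3, 0 and 4 raw reads in the mitoxantrone libraries, against 9, 13 and 24 in the DMSO libraries. In normalized reads these were 3.39, 0 and 4.29 with mitoxantrone, against 7.73, 13.4 and 20.6 with DMSO. The groups did not overlap, but the library with no read only limits the level to below 3 reads, here 3.13 normalized reads, which covers counting error only. The log2 fold change was -2.41 (standard error 0.68, adjusted p = 0.044, edgeR quasi-likelihood test). Summed, 7 reads with mitoxantrone stood against 46 with DMSO, a 5.53-fold lower level with a 95% exact counting interval of 2.48 to 14.5. The call is fragile: it ended with DESeq2's Wald test (adjusted p = 0.055) and without DMSO replicate 3 (adjusted p = 0.32, log2 fold change -1.99) or without any single mitoxantrone library (0.061 to 0.21). The authors' deposited table gave BPIFB1 -1.30 on the log2 scale (standard error 0.40, adjusted p = 0.0055 by the authors' Wald test). This change is smaller than the fitted one, though it passed in the authors' test. The authors' 2.83 for LCN2, 2.41 for C3 and 2.39 for RNASE7 lay close to the fitted values.

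**Figure D1:**
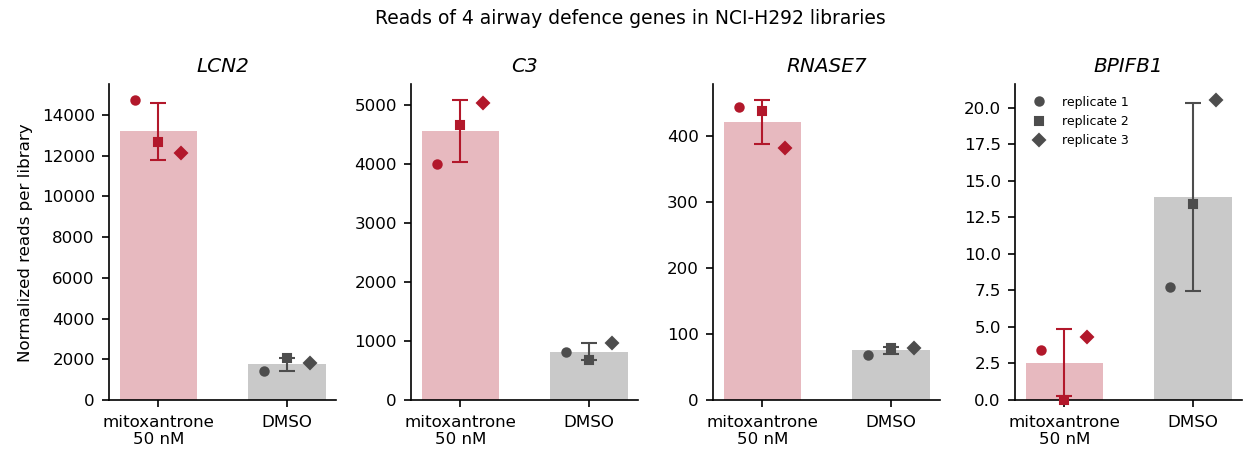
Normalized reads (vertical axis, from 0, a scale of its own per gene) of LCN2, C3, RNASE7 and BPIFB1 in the mitoxantrone and DMSO libraries of NCI-H292 cells; bars are means, error bars SD, and symbols the 3 libraries of each group. LCN2, C3 and RNASE7 lie above every DMSO library in all 3 mitoxantrone libraries, and BPIFB1 lies at 4.29 or less with mitoxantrone.

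With 3 libraries against 3, the two-sided exact permutation test on normalized reads cannot go below 0.1, and it gave 0.1 for each of the 4 genes. By FPKM, the order of the genes was LCN2, C3, RNASE7 and BPIFB1 in both groups. Between neighbours in that order the ranges over single libraries did not overlap: C3 ranged from 28.7 to 38.0 FPKM and RNASE7 from 16.0 to 17.9 FPKM with mitoxantrone, and C3 from 5.03 to 7.62 FPKM and RNASE7 from 3.03 to 3.44 FPKM with DMSO. BPIFB1 stood at 0.0533 ± 0.0473 FPKM with mitoxantrone and 0.287 ± 0.136 FPKM with DMSO (SD, n = 3 each). At that level it was near the limit of detection in both groups.

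Ratios between genes within a library do not depend on the size factors. LCN2 had 14.95, 11.0 and 9.75 times the reads per kilobase of C3 in the mitoxantrone libraries, against 7.15, 12.2 and 7.50 times in the DMSO libraries. These ranges overlapped, and the mean log2 ratio differed by 0.43 (p = 0.30, two-sided exact permutation test; 0.45 adjusted over 3 pairs). LCN2 had 24.3, 21.1 and 23.2 times the reads per kilobase of RNASE7 with mitoxantrone, against 15.1, 19.1 and 16.6 times with DMSO. Here the groups did not overlap, with a difference of 0.44 log2 units, but the exact test gave its smallest possible p of 0.1 (0.3 adjusted over the 3 pairs). C3 had 1.62, 1.92 and 2.37 times the reads per kilobase of RNASE7 with mitoxantrone, against 2.11, 1.57 and 2.21 times with DMSO, a difference of 0.00 (exact permutation p = 1). The larger fold of LCN2 was thus not shown to differ from that of C3 or RNASE7 at this number of libraries.

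**Figure D2:**
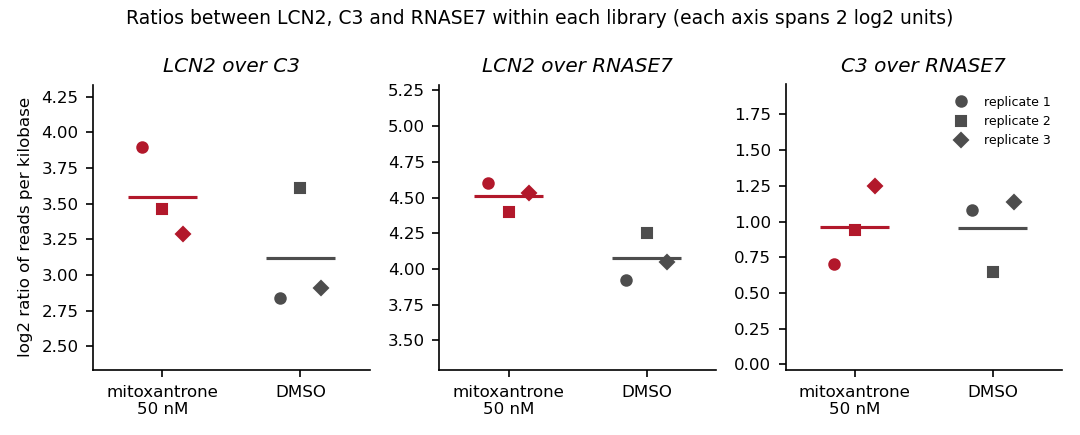
Log2 ratio of reads per kilobase (vertical axis) for LCN2 over C3, LCN2 over RNASE7 and C3 over RNASE7 in each mitoxantrone and DMSO library; lines are means and symbols the replicates. The groups overlap for the pairs with C3 and are apart for LCN2 over RNASE7.

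The size factors matter for the size of the rises. Factors computed over the listed genes alone take the mostly higher, preselected genes of the table to be balanced, and they moved the median log2 fold change of the table by -0.69 (TMM) and -0.99 (DESeq2). With the latter LCN2 had a log2 fold change of 1.92, RNASE7 1.49 and C3 1.48, all still passing, and with TMM 2.22, 1.79 and 1.79. BPIFB1 moved away from 0 with the same factors, to -3.37 with DESeq2's and -3.07 with TMM. All 4 genes kept their direction under both sets of factors. For BPIFB1 this was no test, since a downward shift of the table moves a lower gene further from 0.

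**Figure D3:**
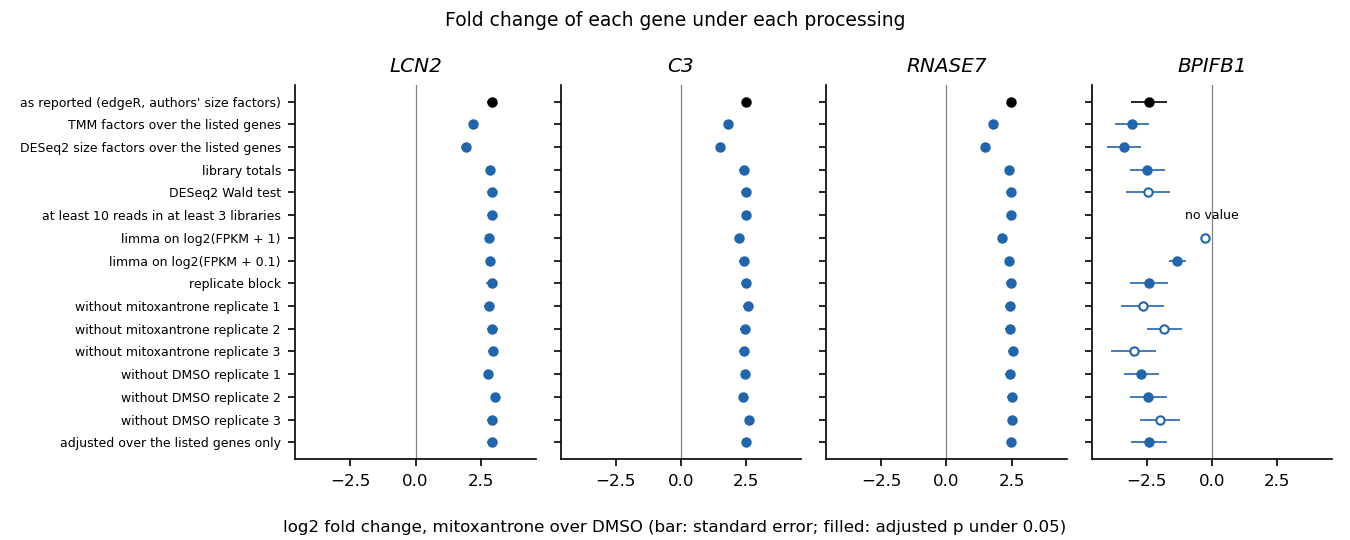
Log2 fold change of mitoxantrone over DMSO (horizontal axis, bars are standard errors) for LCN2, C3, RNASE7 and BPIFB1 under each processing named on the vertical axis; filled points have an adjusted p under 0.05. LCN2, C3 and RNASE7 are filled in every row, and BPIFB1 is open in 6 rows.

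Other secreted antimicrobial proteins of epithelia moved in both directions. Of a list of 49 such genes, which includes LCN2, RNASE7 and BPIFB1, 9 were in the table (18.4%, where 7.13% of the genes the authors tested were). Of the 9, 7 passed the test as higher and 2 as lower, where 56.7% and 35.3% of all listed genes did. Their median log2 fold change was 2.06, against 1.26 over all listed genes. LCN2, RNASE7 and BPIFB1 were taken from the table itself, and the list was drawn up with earlier results of these data known. The share and the median are therefore not independent evidence. Without LCN2, RNASE7 and BPIFB1, 6 genes of the list were in the table, 5 passing as higher and 1 as lower. S100A9, a subunit of the metal-binding protein calprotectin, had 1202, 919 and 951 normalized reads with mitoxantrone, against 216, 291.6 and 230.5 with DMSO, a 4.17-fold rise. PI3, which encodes the elastase inhibitor elafin, rose 6.82-fold with 48.6, 46.9 and 44.0 normalized reads with mitoxantrone, against 3.44, 10.3 and 6.85 with DMSO. The chemokine gene CCL20, which had few reads, rose 5.07-fold, WFDC2, a whey acidic protein family member, 2.38-fold and the protease inhibitor gene CSTA 2.25-fold. DEFB1, which encodes a beta-defensin made constitutively by epithelia, fell instead, with 20.4, 11.5 and 15.03 normalized reads with mitoxantrone, against 57.6, 114.4 and 118 with DMSO (log2 fold change -2.63, adjusted p = 3.4e-05, edgeR quasi-likelihood test). Under either set of factors from the table itself 4 of the 9 genes passed as higher, LCN2, RNASE7, S100A9 and PI3. CCL20, WFDC2 and CSTA no longer did. CCL20 also lost its call without mitoxantrone replicate 1 or DMSO replicate 3.

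In the complement system C3 was the 1 listed gene of 28 components (3.57%, where 7.13% of the genes the authors tested were listed). C3 was taken from the table itself, so this share is not independent evidence. Of 22 complement regulators 2 were listed (9.09%), in lists drawn up with earlier results of these data known. Both were at low levels and passed as higher, where 56.7% of all listed genes did. SERPING1, the inhibitor of the C1 protease complex, had 13.6, 24.0 and 14.0 normalized reads with mitoxantrone, against 4.30, 4.12 and 2.57 with DMSO. CSMD3, a large membrane protein with complement control domains, averaged 33.8 ± 7.47 with mitoxantrone and 6.12 ± 6.58 with DMSO (SD, n = 3 each). ITGAM, a subunit of the receptor for C3 fragments, was the 1 listed gene of 9 complement receptors (11.1%), with 12.4, 32.3 and 19.3 normalized reads with mitoxantrone, against 5.16, 1.03 and 4.28 with DMSO. Calls of these 3 genes ended with TMM or DESeq2 factors from the table itself (edgeR quasi-likelihood test, adjusted p 0.07 to 0.56). They ended too without 1 library: mitoxantrone replicate 2 or DMSO replicate 3 for SERPING1, DMSO replicate 1 for CSMD3 and mitoxantrone replicate 2 for ITGAM.

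RNASE7 was the 1 listed gene of 14 in the RNase A family list (7.14%). The members in it and in the BPI fold and lipocalin lists were taken from the table itself, so these shares are not independent evidence. In the BPI fold list, with 2 of 12 genes listed (16.7%), PLTP, the phospholipid transfer protein of plasma, was listed beside BPIFB1 and went the other way. It had 1401, 1556 and 1632 normalized reads with mitoxantrone, against 466, 506 and 592 with DMSO, a 2.93-fold rise. In the list of lipocalins and siderophore iron handling, 3 of 23 genes were listed (13.0%), LCN2 among them. APOD, a lipocalin that carries lipids, rose 2.85-fold (38.8 ± 7.85 with mitoxantrone and 13.8 ± 6.81 with DMSO, SD, n = 3 each), a call that ended with either set of factors from the table itself and without mitoxantrone replicate 1, DMSO replicate 1 or DMSO replicate 3. FTL, which encodes the light chain of the iron store ferritin, fell 2.19-fold, with 4584, 3850.1 and 3643 normalized reads with mitoxantrone, against 6784, 11204 and 8441 with DMSO. FTL has many pseudogenes, so its reads may have been divided.

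Regulators and inducers of LCN2 and C3 were listed on both sides. Of 30 such genes 10 were listed (33.3%, where 7.13% of the genes the authors tested were). Of the 10, 8 passed as higher and 2 as lower, where 56.7% and 35.3% of all listed genes did. Their median log2 fold change was 1.93, against 1.26 over all listed genes. The list was drawn up with earlier results of these data known, so the share and the median are not independent evidence. IL1A had 4721, 4216 and 4118 normalized reads with mitoxantrone, against 851.5, 789 and 615 with DMSO, a 5.79-fold rise, and IL1B, the other classical interleukin 1, rose 5.51-fold. TNFAIP3, an NF-kappaB target and feedback inhibitor, had 892, 1074 and 1030.4 normalized reads with mitoxantrone, against 174, 118.5 and 108 with DMSO, a 7.46-fold rise. The cytokine genes IL6 and LIF rose 5.61-fold and 2.62-fold, the receptor gene TLR4 6.31-fold, NFKBIZ 2.62-fold and the NF-kappaB subunit gene RELB 2.07-fold. With DESeq2 factors from the table itself LIF, NFKBIZ and RELB no longer passed, and RELB no longer passed with TMM. The C/EBP genes in the table were lower: CEBPD had 382, 219 and 229 normalized reads with mitoxantrone, against 516, 789 and 649 with DMSO, 2.36-fold lower, and CEBPA was 2.46-fold lower.

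Acute phase proteins, which liver and inflamed epithelia release, had 4 of 19 genes listed (21.1%, where 7.13% of the genes tested were). The test called 3 of them higher and 1 lower, where 56.7% and 35.3% of all listed genes did. This list, too, was drawn up with earlier results of these data known, so its share is not independent evidence. SERPINA1, which encodes alpha-1-antitrypsin, had 210.3, 164 and 147 normalized reads with mitoxantrone, against 33.5, 27.8 and 20.6 with DMSO, a 6.34-fold rise. The serum amyloid genes SAA1 and SAA2 rose 4.09-fold and 6.68-fold; they are near-identical, so the share of each is uncertain, and SAA1 did not pass with DESeq2 factors from the table itself (adjusted p = 0.28, edgeR quasi-likelihood test). CP, which encodes ceruloplasmin, was lower on a mean of 0.724 normalized reads with mitoxantrone and 7.15 with DMSO, and passed in 6 of the 15 fits that gave it a value. Its call ended with DESeq2's Wald test, with both limma fits, with the replicate block, and without any 1 mitoxantrone library, DMSO replicate 1 or DMSO replicate 3. Of 28 mucin and mucus genes 3 were listed (10.7%). CLCA2, a regulator of chloride channels, rose 5.17-fold to 1564 ± 15.3 normalized reads with mitoxantrone, against 302 ± 20.1 with DMSO (SD, n = 3 each). The mucin gene MUC19 rose 7.51-fold at a low level, with means of 0.16 FPKM with mitoxantrone and 0.0233 FPKM with DMSO. SPDEF, a transcription factor of mucus-secreting cells, was 3.56-fold lower, with means of 9.12 normalized reads with mitoxantrone and 32.7 with DMSO. The call of SPDEF ended without mitoxantrone replicate 3.

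**Figure D4:**
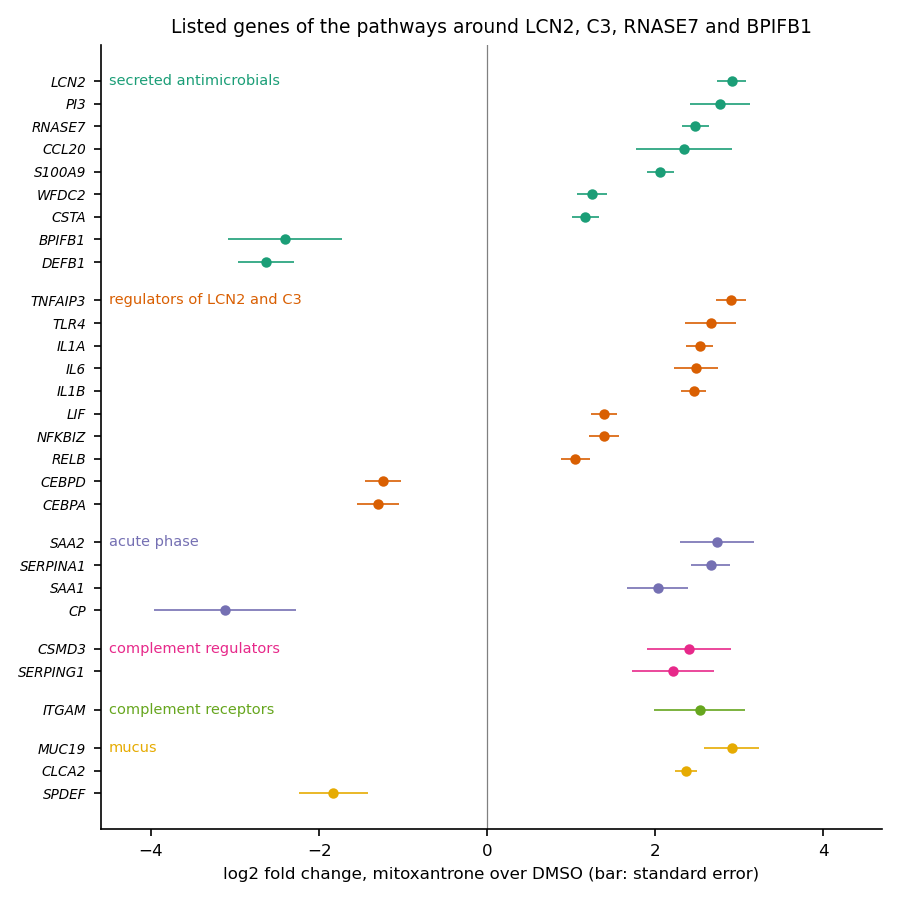
Log2 fold change of mitoxantrone over DMSO (horizontal axis, bars are standard errors) for every listed gene of the antimicrobial, regulator, acute phase, complement regulator, complement receptor and mucus lists (colours). All points shown had an adjusted p under 0.05 by edgeR; BPIFB1, DEFB1, CEBPA, CEBPD, CP and SPDEF lie below 0.

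LCN2 is also stored in the granules of neutrophils, so markers of other cells were read where the table holds them. Of 18 neutrophil markers, MMP9 and CXCR2 were listed. Their sum was 75.0 to 93.4 normalized reads in the mitoxantrone libraries and 23.2 to 36.0 in the DMSO libraries. Most of it was CXCR2, which is not a granule protein (means 74.3 with mitoxantrone and 28.9 with DMSO). CXCR2, a chemokine receptor of neutrophils, passed as higher (log2 fold change 1.36, adjusted p = 0.0015, edgeR quasi-likelihood test), though not with TMM or DESeq2 factors from the table itself. MMP9 did not pass (1.94, adjusted p = 0.085 by edgeR). Of 17 leukocyte markers ITGAM, CD33 and CD14 were listed, with sums of 49.8 to 66.7 with mitoxantrone and 48.1 to 78.0 with DMSO. These sums hold opposite movements. ITGAM passed as higher (log2 fold change 2.53, adjusted p = 0.0056 by edgeR). CD33, a myeloid marker, averaged 9.06 with mitoxantrone and 1.49 with DMSO and did not pass (2.48, adjusted p = 0.063 by edgeR). CD14, a monocyte marker, averaged 25.6 with mitoxantrone and 57.3 with DMSO and passed as 2.23-fold lower, a call that ended without mitoxantrone replicate 3 or DMSO replicate 3. CD33 had 0 reads in DMSO replicate 1. The other markers on both lists, among them MPO, ELANE and PTPRC, were not analysed here. The labels name the cell line NCI-H292 alone as the source of the RNA, and a part of other cells in the LCN2 result was not tested. Of 10 epithelial markers KRT8 and KRT18 were listed, with sums of 122465 to 152988 with mitoxantrone and 46889 to 63695 with DMSO. These keratins of simple epithelium were abundant in both groups. KRT8 (2.80-fold) and KRT18 (2.29-fold) passed as higher by edgeR. With factors from the table itself KRT8 did not pass with DESeq2's, and KRT18 with neither set. Of 13 markers of ciliated and basal airway cells the cilia gene RSPH1 was listed, with 21.9 to 39.7 normalized reads with mitoxantrone and 5.14 to 12.4 with DMSO. RSPH1 passed as higher (log2 fold change 1.70, adjusted p = 0.015 by edgeR), though not with TMM or DESeq2 factors from the table itself. Its call also ended without mitoxantrone replicate 3, DMSO replicate 1 or DMSO replicate 3.

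Among 847 listed genes with a mean of at least 20 normalized reads and a name that is not a clone name, those nearest to each member were found by the Euclidean distance between log2 profiles over the 6 libraries, each gene centred on its mean. Nearest to LCN2 were SLAMF7 (an immune-type cell surface receptor, distance 0.33), RRAD (a Ras-related GTPase, 0.35) and PTPN22 (a tyrosine phosphatase, 0.42). Nearest to C3 were TNFRSF10C (a decoy receptor of TRAIL, 0.11), COL17A1 (the collagen of hemidesmosomes, 0.24) and HEPHL1 (a ferroxidase, 0.34). Nearest to RNASE7 were CDKN1A (the cell cycle inhibitor p21, 0.18), CYGB (cytoglobin, 0.22) and NSG1 (0.24). For BPIFB1 the smallest distances were 1.32 for LDOC1, 1.35 for MFI2-AS1 and 1.37 for GPX2, larger than for the other members. BPIFB1 itself has a mean below that minimum, and listed genes at its level were not compared. With 2 groups of 3 libraries, such distances mostly reflect the size of the change between the groups.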

How the data were processed

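RNA of NCI-H292 cells was read as 150-base pairs; the labels' protocols name both poly(A) selection and ribosomal RNA removal and not which was used. Per the submitters' processing notes the tools were, in no stated order or role, HISAT2 2.0.1, Cufflinks 2.2.1, cutadapt 1.9.1, DESeq2 and HTSeq 0.6.1. The genome build is not given in the sources used here. Per the file headers, the authors' table holds raw read counts and FPKM values per gene and library, the mean normalized count (a signal value), the authors' log2 fold change and its error, a Wald score, and p-values with adjusted p-values. The authors' size factors were solved from counts and mean normalized counts (largest relative error 5.0e-10), and library totals from FPKM: 14762565 to 15663322 reads with mitoxantrone and 15789466 to 17817883 with DMSO. The number of genes the authors tested, 18313, is the one that makes 88.2% of 399 ranks whole (15.8% for the next best). Replicates differed beyond sampling noise (chi-square 3.24 to 31.5 per gene), so none was a duplicate.

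Counts of all 1305 genes were fitted with edgeR 4.0.16 (R 4.3.3) for treatment alone, without a filter on low values, and ranked among listed genes only, which enlarges adjusted p-values. Dispersions from genes selected as changed tend to be too low. Alternatives used TMM or DESeq2 factors, library totals, DESeq2 1.42.0, a minimum of 10 reads in 3 libraries, limma 3.58.1 on log2(FPKM + 1) and log2(FPKM + 0.1), a replicate block, leaving out each library, and adjustment over listed genes. The fit was checked on simulated data. The 95% intervals and the floor of 3 reads hold counting error alone. Genes named were the 4 members, any listed gene of the lists and the 3 nearest profiles per member. The members and lists were chosen with earlier results of these data known. Columns of per-library values left unused numbered 0.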

Additional observations from a re-analysis of the deposited data

How the results depend on the processing

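LCN2, C3 and RNASE7 kept their direction and stayed past the threshold under all 15 alternatives, with log2 fold changes of 1.92 to 3.04, 1.48 to 2.62 and 1.49 to 2.55. BPIFB1 kept its direction under the 14 alternatives that gave it a value (-3.37 to -0.28). With TMM and DESeq2 factors over the listed genes this followed from their downward shift. With the minimum of 10 reads in 3 libraries BPIFB1 had no value. It no longer passed with DESeq2's Wald test (-2.45) or limma on log2(FPKM + 1), where the added constant exceeds its level (-0.28). Leaving out 1 library gave -3.00 to -1.82, and 4 of the 6 omissions ended the call. Members that passed numbered 3 or 4. The table's 740 higher and 461 lower genes became 366 higher with TMM factors and 219 with DESeq2 factors over the listed genes, each with 512 lower, because those factors centre a selected set. That is 41.7% and 30% higher among the calls, against 61.6%. Leaving out 1 library gave 622 to 715 higher and 395 to 463 lower. Same-numbered libraries correlated at -0.28, -0.18 and 0.16 in their deviations from the group means over 931 genes. Differently numbered ones correlated at -0.35 to 0.44. With 3 libraries per group, these values cannot tell whether the replicate numbers pair the libraries. With the replicate block 736 genes passed as higher and 463 as lower, and no call of the 4 members changed. Depth limits BPIFB1 alone among the members, at 7 reads with mitoxantrone and 46 with DMSO.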

Other observations

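In both groups the library with the most LCN2 had the least C3. Mitoxantrone replicate 1 held 14747 normalized reads of LCN2 and 3994 of C3, against 12144 and 5040.4 in mitoxantrone replicate 3. DMSO replicate 2 held 2051.5 of LCN2 and 682 of C3, against 1792 and 968 in DMSO replicate 3. Over 931 listed genes the deviations of these libraries, mitoxantrone replicate 1 and DMSO replicate 2, from their group means correlated at 0.44, the highest of the 9 pairs across groups. The cause was not tested.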
